A study of Homo sapiens with 4 samples.

Results

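The genes followed here are 10 cytokine genes, measured in HEK293 cells with and without transfected double-stranded RNA: IL6, TNF, LIF, IL1A, IL1B, IL11, IL12A, IL15, CSF1 and CSF2. They were chosen by name, as inflammatory cytokines and growth cytokines of haematopoietic cells, and found through the gene symbols that the platform annotation gives to the probes. Of the 10 genes, 9 had a probe, with 12 probes between them, among 18639 genes on the array. No probe carried the symbol CSF2 in the annotation used here, so CSF2 was not analysed here.

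RNA came from HEK293, an immortalized human embryonic kidney line, carrying a transgene either for LGP2-4KR, where the labels leave 4KR unexplained, or for LGP2 itself, a helicase that binds double-stranded RNA. Cells of each line had either been transfected, by means of a lipid reagent, with short poly I:C (synthetic double-stranded RNA) at 100 ng/ml and kept for 12 h, or were unstimulated. The 4 groups, called stimulated and unstimulated 4KR cells and stimulated and unstimulated LGP2 cells, had 1 single-colour array each, so no difference between 2 arrays had a replicate check. All cells shared the HEK293 background, and neither a line without a transgene nor a mock transfection was analysed here, so poly I:C cannot be told apart from the transfection or from 12 h in culture. The labels name no promoter for the transgenes and do not say whether a line is 1 clone.

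Double-stranded RNA in the cytoplasm is sensed by RIG-I and MDA5, which LGP2 regulates, and the signal runs through the adaptor MAVS to the interferon regulatory factors and to NF-kB. NF-kB, often with AP-1, drives TNF, IL6 and the interleukin 1 genes in macrophages and fibroblasts, whereas IL12A and IL15 are known to respond to interferon regulatory factors as well. Most of these cytokines are made chiefly by immune or stromal cells, and a kidney-derived epithelial line need not express them.

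How far each gene stood above the background of its array came first. Every array held 384 blank spots, whose SD was between 1.05 and 1.28 scanner units, and a probe counted as detected above the mean plus 2 SD of them. It also held 96 negative-control spots, and the brightest of these lay 5.78 units above the mean blank on the stimulated 4KR array, against 1.32 on the unstimulated one. In LGP2 cells the brightest lay 4.88 units above the mean blank with stimulation, against 2.28 without. Of the 96, 20 and 22 counted as detected on the stimulated 4KR and LGP2 arrays, against 0 and 1 on the unstimulated 4KR and LGP2 arrays. Their part in the dim readings below was not tested. Of all gene probes, 88.0% and 89.2% were detected on the stimulated 4KR and LGP2 arrays, against 83.8% and 83.2% on the unstimulated ones. Detection with stimulation alone is thus not particular to the cytokines. DHX58, the gene of LGP2, read 103 and 101 units above the blank in stimulated 4KR and LGP2 cells, against 38.0 and 71.1 in unstimulated 4KR and LGP2 cells, and it is unknown here if the probe falls inside the transgene, so these readings do not check the labels. CXCL8, a neutrophil-attracting chemokine driven by NF-kB, read 899 units in stimulated against 13.8 in unstimulated 4KR cells, and 666 against 10.6 units in LGP2 cells.

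The labelled cell type was checked against 8 genes known from HEK293 and related epithelial lines. All 6 of them with a probe were detected on all 4 arrays, among them the neurofilament genes NEFL and NEFM, the intermediate filament gene VIM and the kidney transcription factor gene PAX2. So were 15738 of all 18639 genes, so this count does not set the list apart. The summed deposited intensity of the 6 was 611 in stimulated against 718 in unstimulated 4KR cells and 652 against 739 in LGP2 cells. NEFL was lower at 12 h by the additive limma fit described below, at -0.36 in 4KR and -0.40 in LGP2 cells (adjusted p = 0.025), and CDH2, a cadherin, was at -0.20 and -0.78, past 1.5-fold lower in LGP2 cells. The deposited CDH2 intensity was 51.0 in stimulated against 91.1 in unstimulated LGP2 cells, and 51.9 against 56.0 in 4KR cells. Its LGP2 ratio thus rests on the unstimulated LGP2 array alone. Of 7 monocyte and macrophage markers with a probe, 5 were detected on at least 1 array, CD14, LYZ and CSF1R on all 4, with a summed deposited intensity of 39.3 in stimulated against 34.9 in unstimulated 4KR cells and 41.0 against 32.4 in LGP2 cells. The defining markers PTPRC, the pan-leukocyte gene CD45, and CD163 of macrophages were detected on 0 of 4 arrays, as were MS4A1 of B cells, COL1A2 of fibroblasts and PECAM1 of endothelium. At least 1 array detected 4 of 5 lymphocyte, 4 of 5 fibroblast and 4 of 5 endothelial markers with a probe. CD3E, CD3D and CD2 of lymphocytes, DCN and PDGFRB of fibroblasts and KDR, VWF and TIE1 of endothelium were detected on all 4. In stimulated 4KR cells the deposited intensity was 91.7 for DCN, 31.6 for KDR and 29.3 for PDGFRB, against 9.09 for PAX2. CD3D and CD3E, at 12.2 and 12.0, were also above PAX2, while VWF, TIE1 and CD2, at 5.10, 3.80 and 3.20, were below. Detection therefore did not separate the cell types. The part of these markers in the results was not tested.

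The promoters are shown for TNF and IL1B, which by the 2 SD rule were detected on the stimulated arrays alone. They are also shown for IL6, an NF-kB target with dim readings on every array, and for IL12A, which was detected throughout. They are the 250 bases before the annotated start, 5′ to 3′, from RefSeq (GRCh38.p14), which held 7 of the 10 genes. Capitals mark a match to the NF-kB consensus (the kB consensus), an AP-1 site (TGANTCA), a cAMP response element (TGACGTCA), an interferon-stimulated response element core (TTTC, any 2 bases, TTTC) or a TATA box (TATAAA), each searched on both strands.
TNF, chr6:31575315-31575564, + strand: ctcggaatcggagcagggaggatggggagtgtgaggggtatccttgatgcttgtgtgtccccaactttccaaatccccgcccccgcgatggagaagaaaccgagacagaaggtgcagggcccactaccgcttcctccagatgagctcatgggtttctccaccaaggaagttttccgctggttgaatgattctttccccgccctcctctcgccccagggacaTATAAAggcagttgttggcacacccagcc
IL6, chr7:22726950-22727199, + strand: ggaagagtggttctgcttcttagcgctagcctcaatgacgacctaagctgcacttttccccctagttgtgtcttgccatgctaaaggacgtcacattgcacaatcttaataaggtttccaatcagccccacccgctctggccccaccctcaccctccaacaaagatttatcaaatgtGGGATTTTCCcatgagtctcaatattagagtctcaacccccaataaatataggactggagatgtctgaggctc
IL1B, chr2:112836780-112837029, - strand: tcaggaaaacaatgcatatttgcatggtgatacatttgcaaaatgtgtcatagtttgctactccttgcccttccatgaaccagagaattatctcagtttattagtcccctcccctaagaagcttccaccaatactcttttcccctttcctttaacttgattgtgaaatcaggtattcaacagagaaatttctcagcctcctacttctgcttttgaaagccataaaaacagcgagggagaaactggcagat
IL12A, chr3:159988585-159988834, + strand: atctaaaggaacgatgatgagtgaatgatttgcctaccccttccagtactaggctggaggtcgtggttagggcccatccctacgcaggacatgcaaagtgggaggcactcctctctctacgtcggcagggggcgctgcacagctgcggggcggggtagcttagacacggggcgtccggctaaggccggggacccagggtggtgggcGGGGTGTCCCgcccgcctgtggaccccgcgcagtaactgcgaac
The IL6 promoter held a kB match, GGGATTTTCC, from base -73 to -64, where -1 is the last base before the start. The IL12A promoter held one, GGGGTGTCCC as read on the printed strand, from -44 to -35. In TNF the only match was a TATA box from -29 to -24, and IL1B had none. Of the other promoters in the table, IL11 held an AP-1 match from -96 to -90, and IL1A an AP-1 match from -12 to -6 and a TATA box from -239 to -234. The CSF2 promoter held none. Over 27305 RefSeq promoters of the same length, 5.05% held a kB match, 6.60% an AP-1 match, 1.77% a cAMP response element, 3.07% the interferon-stimulated core and 11.1% a TATA box. These are matches of letters, not sites shown to be used.

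TNF, a secreted and membrane-bound ligand that activates NF-kB and cell death through its receptors, was the 1 member whose only probe stood below the mean blank in unstimulated cells and above every negative control in stimulated cells of both lines. It read 10.5 scanner units above the mean blank in stimulated 4KR cells, against -2.65 in unstimulated 4KR cells. In LGP2 cells it read 9.35 units with stimulation, against -1.61 without. Both stimulated readings, 8.22 blank SDs above the blank mean in 4KR and 7.84 in LGP2 cells, lay above all 96 negative-control spots of their arrays, and both unstimulated readings lay below the blank mean. The table deposited by the authors, in which each array has a median intensity of 25, gives TNF 4.4 and 4.8 in stimulated 4KR and LGP2 cells and leaves both unstimulated cells empty. Both values are below that median.

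**Figure D1:**
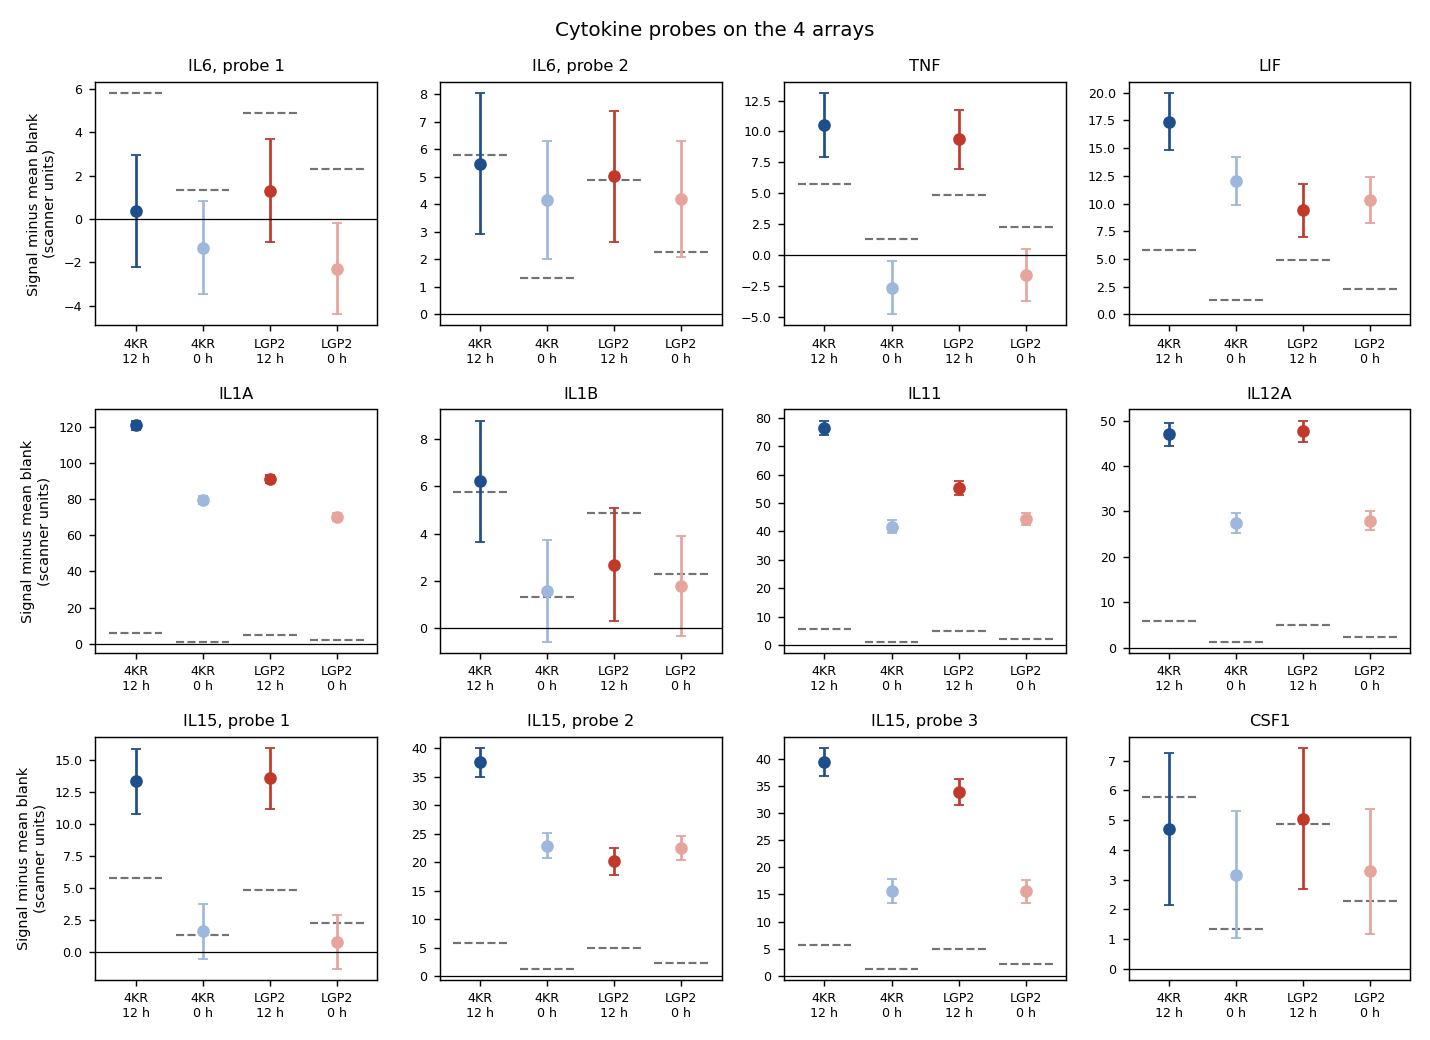
Signal of each cytokine probe minus the mean blank spot of its array, in scanner units, on the 4 arrays. Points are single arrays, bars span 2 SD of the blank spots either side, and the dashed line over each array is its brightest negative-control spot. The TNF readings of 10.5 and 9.35 at 12 h lie above that line, while both unstimulated TNF readings lie below 0.

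IL6, a cytokine of inflammation and the acute phase that signals through gp130, gave no such reading. Its first probe stood at 0.37 units in stimulated against -1.32 in unstimulated 4KR cells. In LGP2 cells that probe stood at 1.31 units with stimulation, against -2.28 without, so it was not detected on any array. Its second probe read 5.47 units in stimulated and 4.17 in unstimulated 4KR cells, and 5.02 and 4.21 units in stimulated and unstimulated LGP2 cells. That probe counted as detected on all 4 arrays, but with stimulation it was dimmer than the brightest negative control in 4KR cells, at 5.78 units, and just above it in LGP2 cells, at 4.88.

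The interleukin 1 genes encode an intracellular and membrane-associated alarmin (IL1A) and a secreted form that needs caspase-1 (IL1B). IL1B read 6.22 units in stimulated 4KR cells, against 1.58 in unstimulated ones, and 2.68 units in stimulated LGP2 cells against 1.77 in unstimulated ones. By the 2 SD rule IL1B was detected on both stimulated arrays and on neither unstimulated array, and at 3 SD on the stimulated 4KR array alone. In 4KR cells both readings passed the brightest negative control of their array, which lay at 5.78 units with stimulation and 1.32 without. In LGP2 cells neither passed it, where it lay at 4.88 and 2.28 units. By that rule IL1B detection thus followed the line and not the stimulation. The deposited table gives unstimulated IL1B a value of 1.05 in LGP2 cells and none in 4KR cells. IL1A was detected on every array, at 121 units in stimulated and 79.3 in unstimulated 4KR cells, and 91.0 and 70.2 units in stimulated and unstimulated LGP2 cells. The deposited intensities of IL1A were 50 in stimulated against 47.5 in unstimulated 4KR cells and 46.2 against 40.9 in LGP2 cells.

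LIF and IL11, which like IL6 signal through gp130, were detected on every array. LIF had deposited intensities of 7.20 in both stimulated and unstimulated 4KR cells, and of 4.8 in stimulated against 6 in unstimulated LGP2 cells. IL11 had 31.7 in stimulated against 25 in unstimulated 4KR cells, and 28.1 against 25.8 in LGP2 cells.

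IL12A, the p35 subunit shared by interleukin 12 and interleukin 35, had deposited intensities of 19.5 in stimulated against 16.4 in unstimulated 4KR cells. In LGP2 cells they were 24.2 with stimulation and 16.3 without. Both stimulated values were above both unstimulated ones, by 1.19-fold in 4KR and 1.48-fold in LGP2 cells, while over all genes of that table the median log2 ratio was 0.15 in 4KR and 0.25 in LGP2 cells. CSF1, the growth factor of the macrophage lineage, had 4.70 units above blank in stimulated and 3.17 in unstimulated 4KR cells, and 5.05 and 3.28 units in stimulated and unstimulated LGP2 cells. Its stimulated 4KR reading was below the brightest negative control of that array, and its stimulated LGP2 reading just above.

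IL15, which supports natural killer and memory T cells, had 3 probes annotated to the same transcript accession, and they disagreed. The first read 13.4 units above blank in stimulated against 1.65 in unstimulated 4KR cells and 13.6 against 0.82 in LGP2 cells, and was not detected in unstimulated cells of either line. The third had deposited intensities of 16.4 in stimulated against 9.40 in unstimulated 4KR cells and 17.2 against 9.09 in LGP2 cells, ratios of 1.74 and 1.89. The second had 15.6 in stimulated against 13.7 in unstimulated 4KR cells, and was lower with stimulation in LGP2 cells, at 10.2 against 13.1. The first and the third probe thus had higher readings at 12 h in both lines, and the second did not in LGP2 cells. In 4KR cells the deposited log2 ratio of the second was 0.19, against a median of 0.15 over all genes. After the normalization described below it was -0.006. The first probe has no unstimulated deposited value, so the deposited IL15 ratios used below average the second and the third alone.

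The response itself was measured as the log2 ratio of 12 h over 0 h after background correction with an offset of 50 scanner units and quantile normalization over the 4 arrays. On that scale a gene starting from the blank level has to gain about 50 units to reach 2-fold, so ratios of dim genes are understated. At least 2-fold higher were 0 of the 9 genes in 4KR cells, where 0.406% of 16751 genes detected on either array were, and 0 of the 9 in LGP2 cells, where 0.43% of 16959 were. The counts of genes at least 2-fold lower were likewise 0 of 9 in each line, against 0.00597% and 0.0118% of genes in 4KR and LGP2 cells. A count of 0 of 9 is close to these background shares and sets nothing apart. At a threshold of 1.5-fold the counts were again 0 of 9, against 1.57% of genes higher and 0.418% lower in 4KR cells and 1.85% and 0.501% in LGP2 cells. All 9 ratios lay between the 2.5 and 97.5 percentiles of all genes, -0.40 to 0.50 in 4KR and -0.40 to 0.52 in LGP2 cells.

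TNF had the highest ratio of the 9 in both lines, 0.26 in 4KR and 0.22 in LGP2 cells, and 8.32% and 10.6% of genes had a higher one. Because it was not above background unstimulated, its change on this scale is a bound, at least 1.08-fold in 4KR and at least 1.07-fold in LGP2 cells. When the mean blank was simply subtracted, with a floor of 2.3 units, the TNF ratios were 1.78 and 1.77, past 2-fold. IL15, averaged over its probes, was at 0.12 in 4KR and 0.08 in LGP2 cells, and IL12A at 0.03 and 0.13. IL11 and IL1B were above 0 in 4KR cells, at 0.09 and 0.05, and below 0 in LGP2 cells, at -0.06 and -0.04. For IL1B, not above background unstimulated, these signs are not measured ones, and the bound in 4KR cells was at least 1.02-fold. IL1A, LIF, CSF1 and IL6 were below 0 in both lines, with IL1A at -0.07 and -0.06 and LIF at -0.05 and -0.12 in 4KR and LGP2 cells. The median over the 9 genes was 0.03 in 4KR and -0.03 in LGP2 cells, against -0.01 over all detected genes in each line.

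Over the settings tried, TNF, IL12A and IL15 stayed above 0 in both lines. The TNF ratios ran from 0.05 to 1.78 in 4KR and from 0.09 to 1.77 in LGP2 cells, those of IL12A from 0.02 to 0.31 and from 0.13 to 0.57, and those of IL15 from 0.03 to 0.82 and from 0.02 to 0.78. Without normalization between arrays the median of all genes itself lay at 0.26 in 4KR and 0.12 in LGP2 cells, and there the IL15 and IL12A ratios were close to it in 4KR cells, at 0.32 and 0.31, and at 0.17 and 0.29 in LGP2 cells. Relative to that median, TNF, IL12A and IL15 were above it in both lines under every setting with a value. LIF was below it in both lines under 7 of 7 settings, and IL6 and CSF1 were below it in 4KR cells under 7 of 7 but on both sides of it in LGP2 cells. IL1A and IL1B lay on both sides of it in each line. IL11 was above it in 4KR cells under 7 of 7 settings and on both sides of it in LGP2 cells. Median centring only shifts whole arrays. Relative to the median of all genes it gives the same values as no normalization, so they are not separate settings in these counts.

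**Figure D2:**
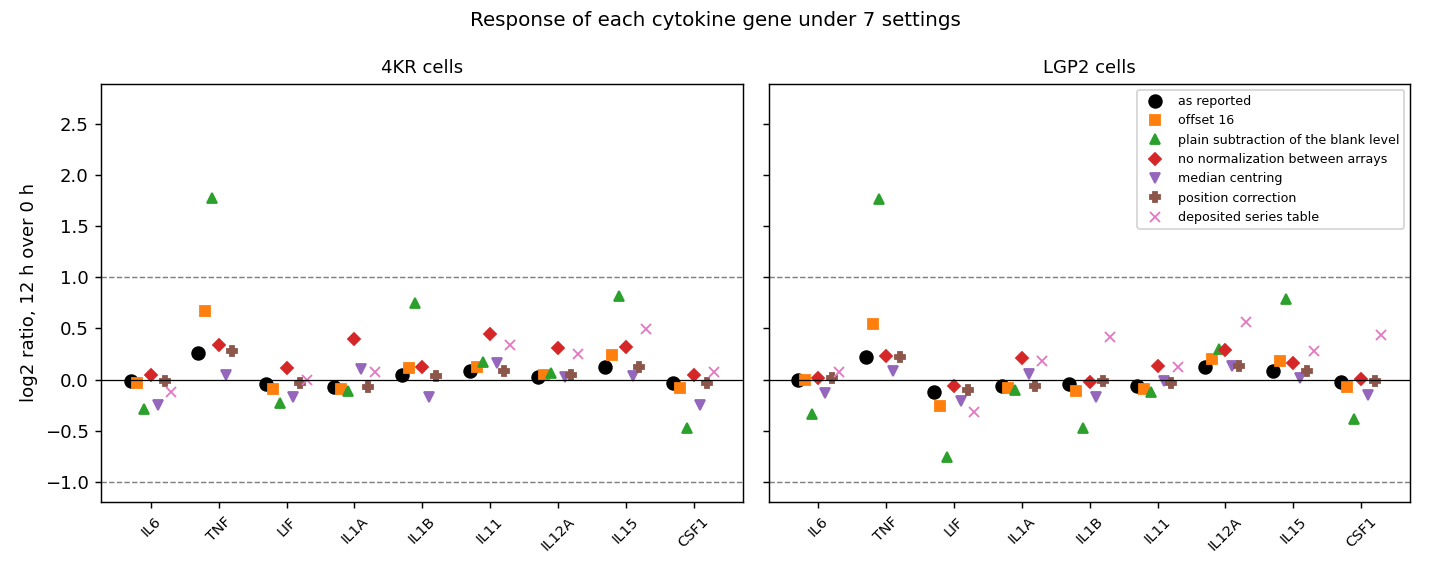
The log2 ratio of 12 h over 0 h for the 9 cytokine genes in 4KR cells (left) and LGP2 cells (right) under 7 settings, 1 marker shape each, with dashed lines at 2-fold. TNF with plain subtraction, at 1.78 and 1.77, is the only point past a dashed line, and the deposited table gives no TNF ratio because it has no unstimulated value.

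A test was possible only by letting the 2 lines stand in for replicates, which they are not. In an additive limma fit of line and stimulation over 17085 genes, with 1 residual degree of freedom per gene, 1 of the 9 cytokines passed an adjusted p of 0.05, against 15.3% of all genes in either direction and 7.95% in the higher direction. A count of 1 among 9 genes is close to that background. The gene was TNF, with a Benjamini-Hochberg adjusted p of 0.036 from limma. On the reported scale alone, TNF was at least 1.08-fold higher at 12 h in 4KR and at least 1.07-fold higher in LGP2 cells. Its fitted 0.24 ± 0.03 (SE) on the log2 scale is set against 2 unstimulated readings that were not above background, and it entered the fit only through the stimulated arrays, so the call adds nothing to the readings themselves. With median centring TNF was at 0.07 with an adjusted p of 0.37, and with plain subtraction at 1.77 with an adjusted p of 0.13, so the call depends on the background correction and the scaling. IL15 was at 0.10 ± 0.03 with an adjusted p of 0.14 from limma, IL12A at 0.08 ± 0.04 with 0.32, LIF at -0.08 ± 0.04 with 0.23 and IL1A at -0.07 ± 0.03 with 0.24. IL6, at -0.01 ± 0.03, IL1B, at 0.00078 ± 0.039, IL11, at 0.01 ± 0.05, and CSF1, at -0.03 ± 0.03, had adjusted p values between 0.57 and 0.99.

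**Figure D3:**
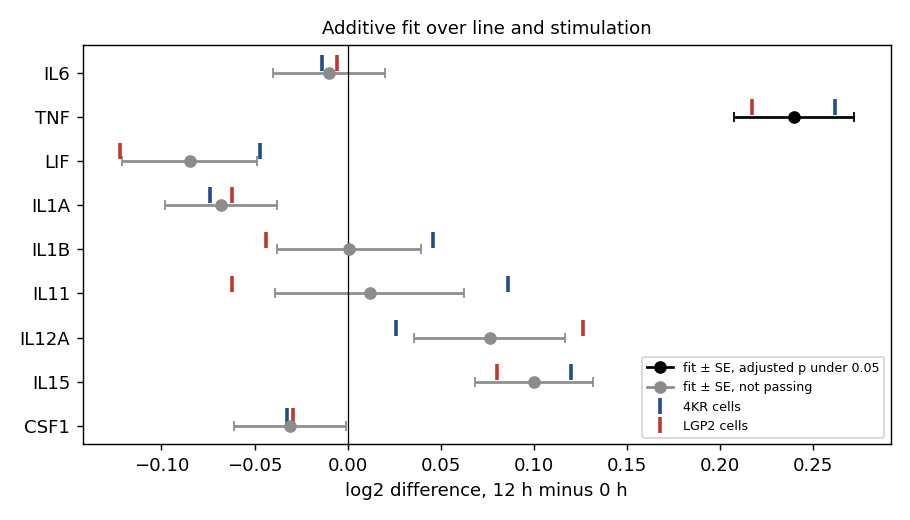
Difference of 12 h minus 0 h on the log2 scale for each cytokine gene in the additive limma fit (points with SE) and the 2 lines' own ratios (ticks). TNF, at 0.24 against unstimulated readings not above background, is the only gene that passes, and for IL11, at 0.09 in 4KR and -0.06 in LGP2 cells, the ticks lie on either side of 0.

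The design also asks whether the lines differed. In the additive limma fit, with the 2 times standing in for replicates of each line, 0 of 9 cytokines passed an adjusted p of 0.05 for 4KR over LGP2, as did 0% of all 17085 genes, of which 828 had an unadjusted p under 0.05. IL1A had the largest such difference of the 9, 0.13 ± 0.03 (SE) with an adjusted p of 0.87 from limma, and was higher in 4KR cells at 2 of 2 times. A difference between the responses of the lines leaves no residual degree of freedom and was not tested. Taking the 4KR response minus the LGP2 response, 0 of the 7 cytokines detected on all 4 arrays passed 2-fold in either direction, against 0.0254% of 15738 genes with the higher and 0.0318% with the lower response in 4KR cells. The largest differences among these 7 were 0.15 for IL11 and -0.10 for IL12A. TNF and IL1B, not detected in unstimulated cells, have no measured difference of this kind. In stimulated cells the TNF ratio of 4KR over LGP2 was 0.0016. For 4KR over LGP2 in unstimulated cells 0 of the 7 cytokines detected there passed 2-fold, where 0.0124% of 16140 genes were higher and 0.0062% lower, and the largest ratio was IL1A at 0.14. In stimulated cells 0 of 9 passed 2-fold, where 0.0117% of 17063 genes were higher and 0% lower, and ratios ran from -0.10 for IL12A to 0.13 for IL1A. At 1.5-fold the counts were 0 of the same 7, 7 and 9 genes, where 0.451% and 0.426% of genes had the higher and the lower response in 4KR cells, 0.13% and 0.341% were higher and lower unstimulated, and 0.0586% and 0.0352% stimulated. IL1A was above 0 at both times, with deposited intensities of 47.5 in 4KR against 40.9 in LGP2 cells unstimulated, and 50 against 46.2 stimulated.

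The receptors through which these cytokines act were measured for all 17 genes listed, of which 14 were detected on all arrays. In either line 0 of the 17 passed 1.5-fold. Of all detected genes, 1.57% were higher and 0.418% lower by that threshold in 4KR cells, and 1.85% and 0.501% in LGP2 cells. Of the 15 receptors detected on at least 1 array, 0 passed the additive limma fit, against 15.3% of all genes. In that fit the lines stand in for replicates. IL6ST, the shared receptor chain gp130, was at 0.27 in 4KR and 0.18 in LGP2 cells (adjusted p = 0.051 from limma), with deposited intensities of 21.7 in stimulated against 11.5 in unstimulated 4KR cells and 24.6 against 15.2 in LGP2 cells. IL15RA, the chain that presents interleukin 15, was at 0.09 and 0.14 in 4KR and LGP2 cells. LIFR, the LIF receptor, was at -0.09 and -0.13, and TNFRSF1B, a TNF receptor, at -0.10 and -0.10.

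On the offset scale 0 of the other interleukin genes passed 2-fold in either line. Of all detected genes, 0.406% in 4KR and 0.43% in LGP2 cells were at least 2-fold higher, and 0.00597% and 0.0118% lower. Of 36 other interleukin genes, 35 had a probe, 29 were detected and 0 passed the additive limma fit, against 15.3% of all genes. IL26 was at -0.78 in 4KR and -0.03 in LGP2 cells, the only one past 1.5-fold in either line. Its deposited intensity was 4.50 in stimulated against 25.1 in unstimulated 4KR cells, and 4.30 against 3.43 in LGP2 cells, so the ratio rests on the unstimulated 4KR array alone. IL1RN, the interleukin 1 receptor antagonist, was at 0.11 in 4KR and -0.28 in LGP2 cells. IL23A, a subunit of interleukin 23, was at -0.12 and -0.05, and IL3, a haematopoietic growth factor, at -0.13 and -0.02.

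Among 20 other growth cytokine genes with a probe, 3 rose in the additive limma fit, again with the lines in place of replicates, and 0 fell, with 7.95% and 7.30% of all genes rising and falling. These were HBEGF, an EGF receptor ligand, at 0.36 in 4KR and 0.58 in LGP2 cells (adjusted p = 0.038), VEGFA, the vascular growth factor, at 0.35 and 0.38 (adjusted p = 0.025), and TSLP, an interleukin-7-like cytokine of epithelia, at 0.27 and 0.33 (adjusted p = 0.030). Their deposited intensities were 49.2, 112 and 37.5 in stimulated against 28.3, 73.2 and 23.4 in unstimulated 4KR cells, and 51.9, 119 and 42.3 against 20.2, 69.6 and 22.8 in LGP2 cells. INHBA, an activin subunit, was at 0.26 and 0.16 and did not pass. Of 15 other TNF superfamily ligands with a probe, CD70, the ligand of CD27, rose and 0 fell, at 0.46 in 4KR and 0.45 in LGP2 cells (adjusted p = 0.024 from limma). LTB, which forms lymphotoxin with LTA, was at 0.09 and 0.04. HBEGF, VEGFA, TSLP, INHBA and CD70 were above 0 in both lines under all settings tried. The median of all genes was itself above 0 in some settings, at most 0.259, without normalization in 4KR cells. The lowest ratios of HBEGF, VEGFA, TSLP and CD70 over lines and settings, 0.353, 0.332, 0.266 and 0.454, were above that value. The lowest of INHBA, 0.129, was not.

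Genes that process interleukin 1 and TNF or control cytokine mRNA were counted in the same way. Of 14 processing genes, 1 rose and 1 fell in the additive limma fit, with the same limit on replicates. The share of all genes that rose was 7.95% and that fell 7.30%, and the counts of this and the next 2 lists are close to it. PYCARD, the inflammasome adaptor ASC, was at 0.35 in 4KR and 0.29 in LGP2 cells, and NLRC4, an inflammasome sensor, at -0.27 and -0.26 (adjusted p = 0.029 for each). NLRC4 lay below the median of all genes in both lines under 7 of 7 settings. Of 11 genes of mRNA decay and stability, 1 rose and 0 fell, ZFP36L2, an AU-rich element binding protein, at 0.32 and 0.39 (adjusted p = 0.027). HNRNPD, which also binds AU-rich elements, was at 0.11 and 0.17. Of 21 signalling genes with a probe, 2 rose and 2 fell. SOCS2, a feedback inhibitor of cytokine signalling, rose at 0.42 in 4KR and 0.36 in LGP2 cells and TRAF6, the ubiquitin ligase downstream of the interleukin 1 receptor, at 0.38 and 0.37 (adjusted p = 0.025 for each). JAK1, a kinase of gp130 receptors, fell at -0.42 and -0.27 (adjusted p = 0.039), and TYK2, a related kinase named after its values were seen, at -0.24 and -0.17 (adjusted p = 0.049). Relative to the median of all genes under the same setting, JAK1 was lower in both lines under 7 of 7 settings. TYK2 was lower under 5 of 7, and without normalization or with median centring it was 0.03 above that median in 4KR and 0.04 above it in LGP2 cells. TAB2, an adaptor of the kinase TAK1, was at 0.51 and 0.25 and did not pass.

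**Figure D4:**
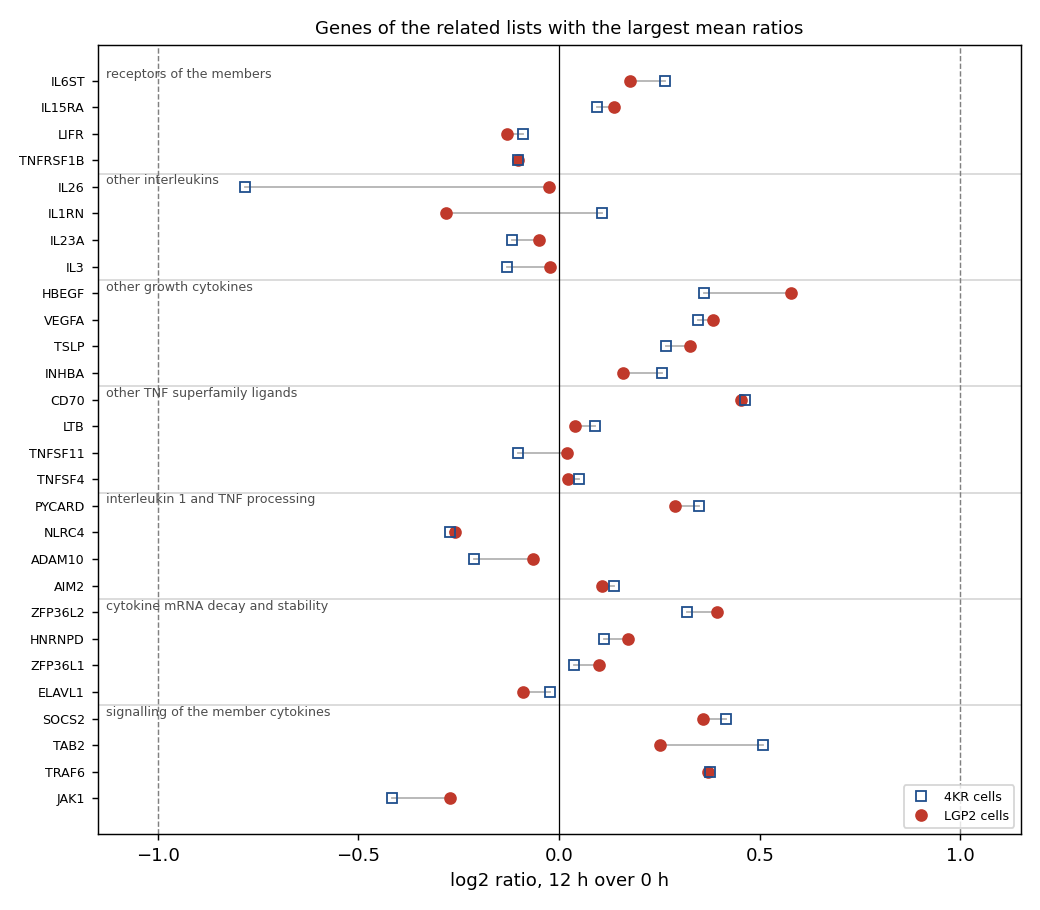
The log2 ratio of 12 h over 0 h in 4KR cells (open squares) and LGP2 cells (filled circles) for 4 genes of each of 7 related lists, those with the largest mean ratio in size. The scale is that of the offset of 50 units, on which 0 of these genes reaches the dashed lines at 2-fold, and IL26 is the gene whose points lie farthest apart, at -0.78 and -0.03.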

How the data were processed

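The authors deposited, per the file headers, a scanner table per array with the median intensity of each spot at 635 nm, on a linear scale and not normalized, and a series table of intensities with a median of 25 on each array, whose scaling rule the sources used here do not state. Per the labels' protocols, amplified RNA was coupled to a dye before hybridization. From the scanner values, the background was removed by normexp over all spots (limma 3.58.1, R 4.3.3, offset 50, the mean blank spot taken as background). The 24460 gene probes were then quantile-normalized and put on a log2 scale. Probes of a gene were averaged. The annotation named 1 gene for 21707 probes, several for 0 and none for 2753, and 1 probe rejected by the scanner was left out. Of 18639 genes, 17085 were detected on at least 1 array. The precision is limited by the number of arrays. Pairwise ratios had no test. The fit used lmFit and eBayes with Benjamini-Hochberg adjustment over all detected genes. On simulated data for this fit over 17085 genes it called 50 of 50 genes at each simulated log2 change of 0.5, 1, 2 and -1, and 7 of 16885 unchanged genes. The simulation gave every gene the same normal spread and the same response in both lines. The measured genes differ in both, so these rates do not carry over to them. The line term was added after seeing the data.

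The cytokine genes and all lists were chosen with earlier results of these data known. Named genes were all members, DHX58 and up to 4 genes per list by mean ratio. CXCL8 was added later, as a gene known from earlier results to respond. The rule also asked for genes most like any member past 2-fold in both lines, and there was none. Detection above the negative controls was chosen after seeing the data. Coordinates are given for the RefSeq promoters alone, since the files used here name no build.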

Additional observations from a re-analysis of the deposited data

Results flagged for a closer look

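On the reported scale the 2 lines' responses had opposite signs for IL11 and IL1B, and neither difference was tested, since an interaction leaves no residual degree of freedom. For IL11 the 4KR response minus the LGP2 response was 0.148, from 0.09 in 4KR cells and -0.06 in LGP2 cells. Without normalization and in the deposited table IL11 was above 0 in both lines, at 0.45 and 0.34 in 4KR cells and 0.13 and 0.12 in LGP2 cells. For IL1B the value was 0.0898, but both unstimulated readings were not above background, so it is no measured difference. The IL1B signal above blank, not scaled between arrays, was higher with stimulation in both lines. It was 6.22 against 1.58 units in 4KR cells and 2.68 against 1.77 units in LGP2 cells. The median negative control was also higher with stimulation, at -0.41 against -1.36 units in 4KR cells and 0.58 against -1.09 in LGP2 cells. With median centring both IL1B ratios were below 0, at -0.17 in 4KR and -0.17 in LGP2 cells.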

How the results depend on the processing

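Counts of cytokine genes past 2-fold were 0 in all 5 comparisons with an offset of 16, no normalization between arrays, median centring, the deposited table, the position correction, detection at 3 SD or above the negative controls, and a 1.5-fold threshold. With plain subtraction of the blank level the count was 1 in 4KR and 1 in LGP2 cells for 12 h over 0 h, TNF in both, and 0 in the other 3 comparisons. In the additive limma fit the count passing was 1 as reported and 1 with an offset of 16, the position correction, the variance trend and both other detection rules, TNF each time. It was 0 with plain subtraction, where 0 of all 17085 genes passed in limma and 4894 had an unadjusted p under 0.05, and 0 in the deposited table, which has no unstimulated TNF value. It was 5 without normalization between arrays, where TNF, IL1A, IL11, IL12A and IL15 were higher and 40.7% of all genes passed. It was 4 with median centring, where IL6, LIF, IL1B and CSF1 were lower and 43.0% of all genes passed. Cytokine genes detected on all 4 arrays numbered 7 as reported, 6 at 3 SD, 7 by a value in the deposited table and 5 above the negative controls. By the reported rule 15738 of all 18639 genes were detected on all 4 arrays. Of the single ratios, 210 moved by less than the SD of that comparison over all genes and 53 by more. No paired analysis was possible because each group holds 1 array and so no replicate number to pair by, apart from the additive fit, which already sets 12 h against 0 h within each line. For 4KR over LGP2 in that fit 0 cytokines passed under each of the 9 alternatives. In the deposited table TNF and IL1B lack at least 1 unstimulated value, so only 7 cytokines were in the fit there. Low signal limits IL6, IL1B and CSF1, whose readings lay among or just above the negative controls on at least 1 array. It also limits TNF, whose unstimulated readings lay below the mean blank, and the first IL15 probe, not detected in unstimulated cells.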
